A study of Mus musculus with 4 samples.

Results

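The genes described are the coreceptors Cd4, Cd8a and Cd8b1, the 4 genes of the CD3 complex (Cd3d, Cd3e, Cd3g and Cd247) and 3 abundant surface markers of thymocytes (Cd2, Thy1 and Cd24a). They were chosen by name, as the array features that carry 1 of these 10 gene names, and the rule itself uses no measured value, although the set was drawn up with earlier results of these data known. They are 10 of the 13062 genes, and 18 of the 19038 probes, that entered the test. The arrays were hybridised with RNA of sorted CD4+CD8+ double-positive (DP) thymocytes from untreated littermates, sex-matched and 6 to 12 weeks old. USP8ff mice carried loxP-flanked alleles of Usp8, a deubiquitinase gene, without Cre, and USP8ff_CD4Cre mice carried the same alleles with CD4Cre. Each of the 4 samples pooled 2 mice, so that each genotype had 2 samples and 8 mice were used in all. No group had Cre alone, so deletion of Usp8 and presence of Cre cannot be told apart. Pooling also hides the spread between single mice, and 4 arrays limit the precision.

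CD4 and CD8 bind MHC class II and class I molecules, respectively, and bring the kinase Lck to the T cell receptor. The receptor's own chains have almost no signalling part, and the CD3 delta, epsilon, gamma and zeta chains carry its signal through tyrosine motifs called ITAMs. DP thymocytes express both coreceptors, while later stages keep CD4 or CD8. CD2 is an adhesion and costimulatory receptor, and Thy1 and CD24 are glycoproteins held in the membrane by a GPI anchor. Regulatory sequences of Cd4 drive Cre in CD4-Cre mice, so the level of Cd4 in these cells also bears on the driver. The arrays measured RNA, not surface protein. Cells had to display CD4 and CD8 to be sorted, so the coreceptor values describe cells inside that gate.

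The targeted gene checks the labels. Its probe that was well above background on every array (chr2:126584363-126584422 on mm9) read -0.23 and -0.40 in USP8ff, and -1.03 and -1.23 in USP8ff_CD4Cre, as log2 signals scaled to the 75th percentile of the array. Usp8 thus stood at 56.9% of the control level (95% interval 45.1% to 71.9%, limma adjusted p = 0.60), with no overlap between the groups. The upper bound of that interval lies under the lower bound of each of the 10 genes described below. The labels do not place this probe inside or outside the floxed part of Usp8, so its level may not measure the deletion.

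None of the 10 genes changed by the test, and their estimated levels in USP8ff_CD4Cre lay between 89.6% (Cd3g) and 114% (Cd24a) of those in USP8ff. In limma, 0 of 10 passed an adjusted p of 0.05 and 0 of 10 had an unadjusted p under 0.05. Over all genes, 0% were called after adjustment, with a smallest adjusted p of 0.29, and 7.43% had an unadjusted p under 0.05 (3.46% lower and 3.97% higher). Adjusted p-values of the members ran from 0.70 to 0.99. Every 95% interval held a difference of 0. The lowest bound was 74.3% of the control level, for Cd2, and the highest was 138%, for Cd24a. Those bounds belong to single genes and are not a limit of detection. With 2 pools per group, Usp8 at 56.9% of control did not pass either (limma adjusted p = 0.60). In bulk samples, fewer cells of a type and less RNA per cell cannot be told apart.

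Sequences that reported the coreceptors, the discordant second probe of Cd3e and both probes of Thy1 are given by the start of each probe. Each line shows the first 30 bases of a 60-base probe as the deposited scanner files list it, 5′ to 3′, with no capitals because no part is singled out. Positions are those of the files, on mm9. For 5 of the 18 probes the position covers more bases than the 60-base probe, as for a probe across a splice junction. Exon, intron or UTR was not looked up, because no mm9 annotation was used here.
Cd4, probe A_51_P236573, chr6:124815401-124815459, minus strand: acactgcatcgacgctaaatcctagcaagc
Cd4, probe A_52_P383089, chr6:124817706-124817765, minus strand: tcaagtggtggcccctgagacagggctgtg
Cd8a, probe A_51_P345121, chr6:71327330-71327389, plus strand: ttaggtatgtgtctttagtatagcatgctt
Cd8a, probe A_52_P443334, chr6:71328911-71328970, plus strand: cctgaaggaactaagagtcacccatggtcc
Cd8b1, probe A_51_P150433, chr6:71287068-71287126, plus strand: ggaccctggagaagactgcaaatcctcaca
Cd3e, probe A_52_P86404, chr9:44811984-44812043, minus strand: ctaggaaacatcgatggtaaaaattaagtc
Thy1, probe A_51_P420731, chr9:43854991-43855436, plus strand: gcgcgaatcccatgagctccaataaaagta
Thy1, probe A_52_P479249, chr9:43856600-43856659, plus strand: cactgctacagcatctcaccgaggaaagaa

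All 18 probes were well above background on all 4 arrays, no spot was saturated, and no member spot carried an outlier flag. Between 45.0% and 48.9% of all probes were well above background per array. All 10 DP stage markers on the list (among them Rag1, Rag2 and Ptcra) were well above background on all 4 arrays. Sorted DP cells should lack B cells. Of the B cell list, Cd79a, Ms4a1, Ebf1 and Pax5 were not well above background on any array, while Igh-6 (group means 6.17 in USP8ff and 6.69 in USP8ff_CD4Cre), Cd79b (2.39 and 2.31) and Blnk (0.14 and -0.62) were so on all 4.

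Cd4, the coreceptor for MHC class II, gave nearly the same signal in the 4 pools. Here and below, pairs of values give replicate 1 and then replicate 2. The probe that stood for the gene had log2 signals of 1.32 and 1.35 in the USP8ff pools and of 1.24 and 1.30 in the USP8ff_CD4Cre pools. Both USP8ff_CD4Cre pools were thus below both USP8ff pools, by a margin that the test did not separate from no difference. The log2 difference was -0.063 ± 0.10 (SE, limma adjusted p = 0.90), a level of 95.7% with a 95% interval of 79.7% to 115%. It was negative under every alternative that can move it.

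The second Cd4 probe was printed 10 times on each array and gave a view of the measurement error. Its spots averaged 0.81 and 0.76 for USP8ff against 0.69 and 0.72 for USP8ff_CD4Cre, again with no overlap between groups. The SD among its 10 spots was 0.039 to 0.072 on the log2 scale, a coefficient of variation of 2.75% to 5.08%. Its genotype difference was -0.078 ± 0.11 (SE), or 94.7% of control (limma adjusted p = 0.90 over probes). Repeated spots share 1 hybridisation, so they show the error of the array and not the spread between pools.

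**Figure D1:**
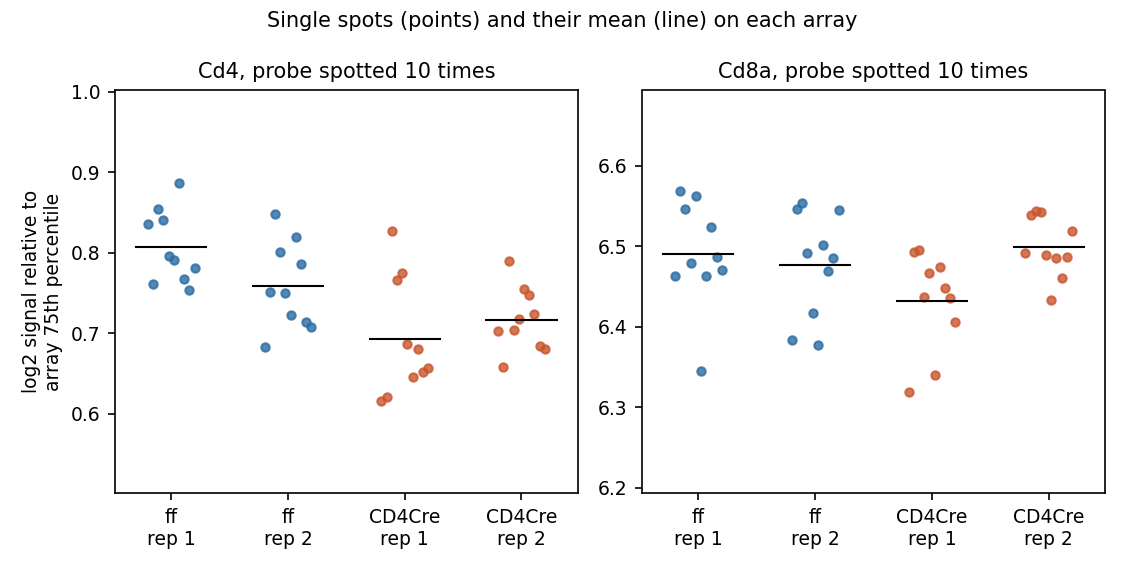
Log2 signal of each of the 10 spots of the repeated Cd4 probe (left) and Cd8a probe (right) on the 4 arrays, relative to the 75th percentile of the array, with points for spots and lines for their means. The Cd4 means were 0.81 and 0.76 in USP8ff against 0.69 and 0.72 in USP8ff_CD4Cre, and the spots of the 4 arrays overlap for both genes.

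Cd8a, the alpha chain of the class I coreceptor, differed more between replicates than between genotypes. Its main probe read 7.29 and 7.44 in USP8ff, and 7.28 and 7.48 in USP8ff_CD4Cre, so that replicate 2 was higher than replicate 1 in each genotype. The log2 difference was 0.015 ± 0.13 (SE, limma adjusted p = 0.98), and it was -0.10 with quantile normalization and -0.014 with normexp background. The probe printed 10 times had means of 6.49 and 6.48 in USP8ff, and 6.43 and 6.50 in USP8ff_CD4Cre, with a difference of -0.019 ± 0.11. The third Cd8a probe had 0.031 ± 0.15. The 3 probes thus lay within 0.031 of 0 in either direction, and the groups overlapped in each of them.

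Cd8b1, the beta chain that pairs with CD8 alpha, is encoded 40.2 kb from the Cd8a probe on chromosome 6. It read 9.15 and 9.26 in USP8ff, and 9.29 and 9.29 in USP8ff_CD4Cre. Both USP8ff_CD4Cre pools were the higher ones, while the raw processed signals (335521 and 362422 against 332929 and 350674) overlapped. The log2 difference was 0.086 ± 0.11 (limma adjusted p = 0.86), or -0.19 with quantile normalization. Neither sign was separated from 0.

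The ratio of the 2 coreceptor signals within an array does not depend on a constant scaling between arrays. The log2 signal of Cd4 minus that of Cd8a was -5.97 and -6.09 in USP8ff, and -6.03 and -6.18 in USP8ff_CD4Cre. These values overlapped, and the difference of -0.078 was smaller than the pooled SD of 0.095 (exact two-sided permutation p = 0.67). With 6 ways to split 4 arrays, the smallest p that this test allows is 0.33. The probes printed 10 times gave -5.68 and -5.72 in USP8ff, and -5.74 and -5.78 in USP8ff_CD4Cre, with no overlap, a difference of -0.059 and the smallest possible p of 0.33. For Cd8a minus Cd8b1 the difference was -0.071, within a pooled SD of 0.10 (exact permutation p = 1). The sizes of these ratios set different probes against each other and carry no meaning of their own.

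**Figure D2:**
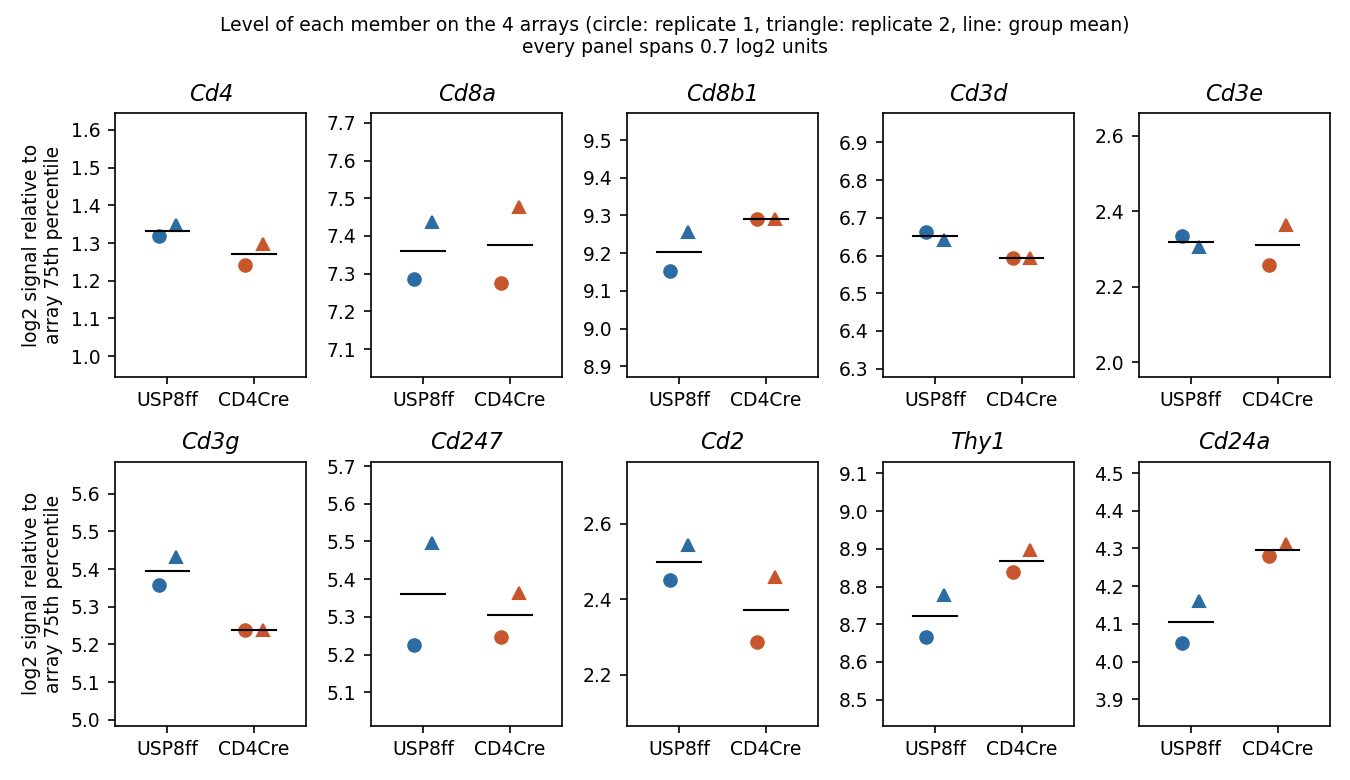
Log2 signal relative to the 75th percentile of the array for each of the 10 genes, with 1 point per array (circle for replicate 1, triangle for replicate 2), a line at each group mean and the same height of axis in every panel. Cd4, Cd3d and Cd3g are lower in both USP8ff_CD4Cre pools, Cd8b1, Thy1 and Cd24a are higher in both, and the other 4 genes overlap.

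The CD3 genes had negative differences, none of which passed. Their median was -0.057, against 0.021 over all genes and 0.045 over the 5727 genes at least as bright as the dimmest member. Of all genes, 45.2% had a negative difference, and of those 5727 bright genes 37.0%. In 2 of the 4, Cd3d and Cd3g, the groups did not overlap, with USP8ff_CD4Cre lower. That was so for 16.3% of all genes and 12.4% of the bright genes. The mean log2 signal of the 4 genes was 4.90 and 4.97 in USP8ff, and 4.83 and 4.89 in USP8ff_CD4Cre, a difference of -0.070 beside a pooled SD of 0.046. Under quantile, median and normexp scaling all 4 kept a negative sign. Cd3e became 0.0067 without USP8ff replicate 1 and 0.043 without USP8ff_CD4Cre replicate 1. Cd247 became 0.0029 without USP8ff_CD4Cre replicate 1 and 0.080 without USP8ff replicate 2.

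Cd3g, the gamma chain, had the lowest estimate of the 10 genes. Its probe (chr9:44781716-44782300, minus strand) read 5.36 and 5.43 in USP8ff, and 5.24 and 5.24 in USP8ff_CD4Cre. The difference was -0.16 ± 0.10 (SE, limma adjusted p = 0.73), or 89.6% of control with a 95% interval of 74.5% to 108%. Of all genes, 38.0% had a larger absolute difference, so a value of this size was common on these arrays. Cd3d, the delta chain (chr9:44794171-44794402, plus strand), read 6.66 and 6.64 in USP8ff, and 6.59 and 6.59 in USP8ff_CD4Cre. Its difference was -0.058 ± 0.10, and its replicates lay closer together than those of 99.4% of genes.

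The probes of these neighbouring genes lie 11.9 kb apart on chromosome 9, with Cd3g read from the minus strand and Cd3d from the plus strand. They are the CD3 genes whose groups did not overlap on the probe that stood for the gene. The 250 bases before their start sites are therefore shown, from RefSeq on GRCm38.p6. Capitals mark the string AGGAAG on either strand, a form of the site of ETS factors, a family active in T cells. Shorter or other forms of that site were not searched, so a window without a match may still hold an ETS site. Of 32851 such windows in RefSeq, 29.5% held AGGAAG. The Cd3d window held 1 match and the Cd3g window 0. The windows of Cd3e and Cd247 held 2 and 1, and that of Cd8a held 0.
Cd3d, chr9:44981536-44981785, plus strand: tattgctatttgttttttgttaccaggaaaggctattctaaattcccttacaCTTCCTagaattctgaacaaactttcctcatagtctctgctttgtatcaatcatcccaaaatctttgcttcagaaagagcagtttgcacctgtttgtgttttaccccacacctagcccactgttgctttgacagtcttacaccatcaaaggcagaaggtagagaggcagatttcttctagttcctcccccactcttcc
Cd3g, chr9:44980432-44980681, minus strand: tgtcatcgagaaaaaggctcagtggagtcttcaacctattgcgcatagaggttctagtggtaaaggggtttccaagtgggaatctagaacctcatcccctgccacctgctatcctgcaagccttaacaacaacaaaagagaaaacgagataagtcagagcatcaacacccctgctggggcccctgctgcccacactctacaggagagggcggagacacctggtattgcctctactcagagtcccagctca

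Other short motifs were searched on both strands of the same windows. The E-box CANNTG, bound by basic helix-loop-helix factors such as E proteins, had 3 matches before Cd3g, 1 before Cd3d, 1 before Cd3e, 2 before Cd247 and 2 before Cd8a, while 66.2% of all windows held at least 1. The E-box reads alike on both strands, and each match was counted once. The GATA core AGATAA had 1 match, before Cd3g, against 9.99% of all windows with a match. The RUNX core TGTGGT had 0 matches in the 5 windows and was present in 14.1% of all windows. No ETS match overlapped an E-box or GATA match in these windows. A match is a string of letters and shows no binding.

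Cd3e, the epsilon chain, was nearly equal on its main probe and had a larger negative difference on its other probe, and neither passed. The main probe (chr9:44807254-44807313, minus strand) read 2.34 and 2.30 in USP8ff, and 2.26 and 2.36 in USP8ff_CD4Cre, a difference of -0.0090 ± 0.11 (SE, limma adjusted p = 0.99). The second probe, designed on the sequence BC028636, read 0.26 and 0.32 in USP8ff, and 0.15 and -0.19 in USP8ff_CD4Cre. Its groups did not overlap, and its difference was -0.31 ± 0.15 (limma adjusted p = 0.77 over probes). That was the smallest p among the 18 probes, and USP8ff_CD4Cre replicate 2 was the lowest array. Whether the probe reports the same transcripts as the main one was not tested.

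Cd247, which encodes the zeta chain, had 4 probes, all with negative differences. The brightest (chr1:167791855-167791914, plus strand) read 5.23 and 5.50 in USP8ff, and 5.25 and 5.36 in USP8ff_CD4Cre, with a difference of -0.056 ± 0.14 (SE, limma adjusted p = 0.93). The probe at chr1:167786567-167787585 read 2.55 and 2.74 in USP8ff, and 2.33 and 2.60 in USP8ff_CD4Cre, with -0.18 ± 0.15. Groups overlapped on each.

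The remaining pair of Cd247 probes had 1 array above the rest. The probe designed on AK016078 (chr1:167807278-167807337) read 0.83 and -0.28 in USP8ff, and 0.093 and -0.44 in USP8ff_CD4Cre. The dim probe at chr1:167797296-167797355 read -2.36 and -3.25 in USP8ff, and -3.01 and -3.23 in USP8ff_CD4Cre. On both of them USP8ff replicate 1 was the highest array, which it was not on the brighter probes. Their differences of -0.45 ± 0.39 and -0.31 ± 0.30 were about the size of their standard errors. With the probes of each gene averaged, Cd247 had a difference of -0.25 and Cd3e of -0.16, and neither passed. The difference of the mean of the CD3 genes was then -0.16, a description with no test.

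**Figure D3:**
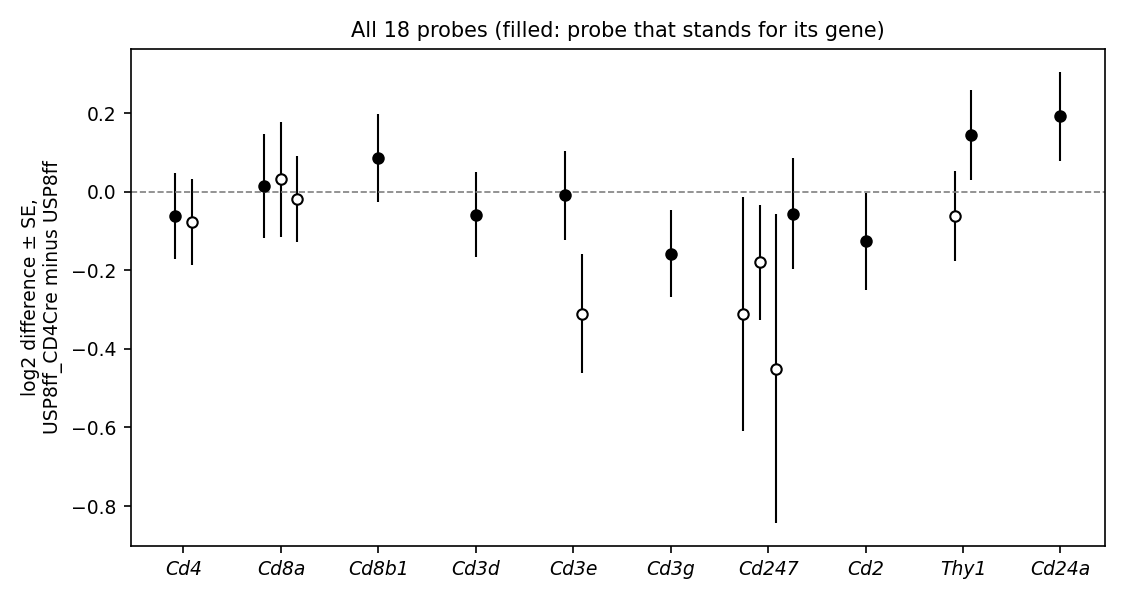
Log2 difference (USP8ff_CD4Cre minus USP8ff) with its standard error for each of the 18 probes, grouped by gene, filled where the probe stands for its gene. The probes range from -0.45 for a Cd247 probe to 0.19 for Cd24a, and the widest error bars belong to 2 of the Cd247 probes.

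Among the surface markers, Cd2 had a negative difference and Thy1 and Cd24a positive ones, and none passed the test. The Cd2 probe (chr3:101083802-101086981, minus strand) read 2.45 and 2.54 in USP8ff, and 2.29 and 2.46 in USP8ff_CD4Cre. The groups overlapped by a small margin, and the difference was -0.13 ± 0.12 (SE, limma adjusted p = 0.81), negative under every alternative that can move it. Without USP8ff_CD4Cre replicate 1 it was -0.039, and without replicate 2 of that genotype it was -0.21.

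Thy1, the marker CD90 of T lineage cells, read 8.67 and 8.78 in USP8ff, and 8.84 and 8.90 in USP8ff_CD4Cre on its brighter probe. Both USP8ff_CD4Cre pools were the higher ones, with a difference of 0.15 ± 0.11 (limma adjusted p = 0.76) that became -0.081 under quantile normalization. The raw processed signals of that probe (239387 and 260280 in USP8ff against 243421 and 266773 in USP8ff_CD4Cre) overlapped. The second Thy1 probe, whose position covers 446 bases, read 5.09 and 5.22 in USP8ff, and 5.10 and 5.09 in USP8ff_CD4Cre. It had the opposite sign, -0.062 ± 0.11, so the 2 probes did not share a direction.

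Cd24a, the heat-stable antigen that thymocytes lose as they mature, had the highest estimate. Its probe (chr10:43303706-43303765, plus strand) read 4.05 and 4.16 in USP8ff, and 4.28 and 4.31 in USP8ff_CD4Cre. Both USP8ff_CD4Cre pools thus lay above both USP8ff pools after scaling. The raw processed signals (9754 and 10602 in USP8ff against 10337 and 11117 in USP8ff_CD4Cre) overlapped. The difference was 0.19 ± 0.11 (SE, limma adjusted p = 0.70), or 114% of control with a 95% interval of 94.3% to 138%. It was positive under every alternative that can move it, from 0.12 with quantile normalization to 0.25 without USP8ff replicate 2. Of all genes, 30.1% had a larger absolute difference.

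**Figure D4:**
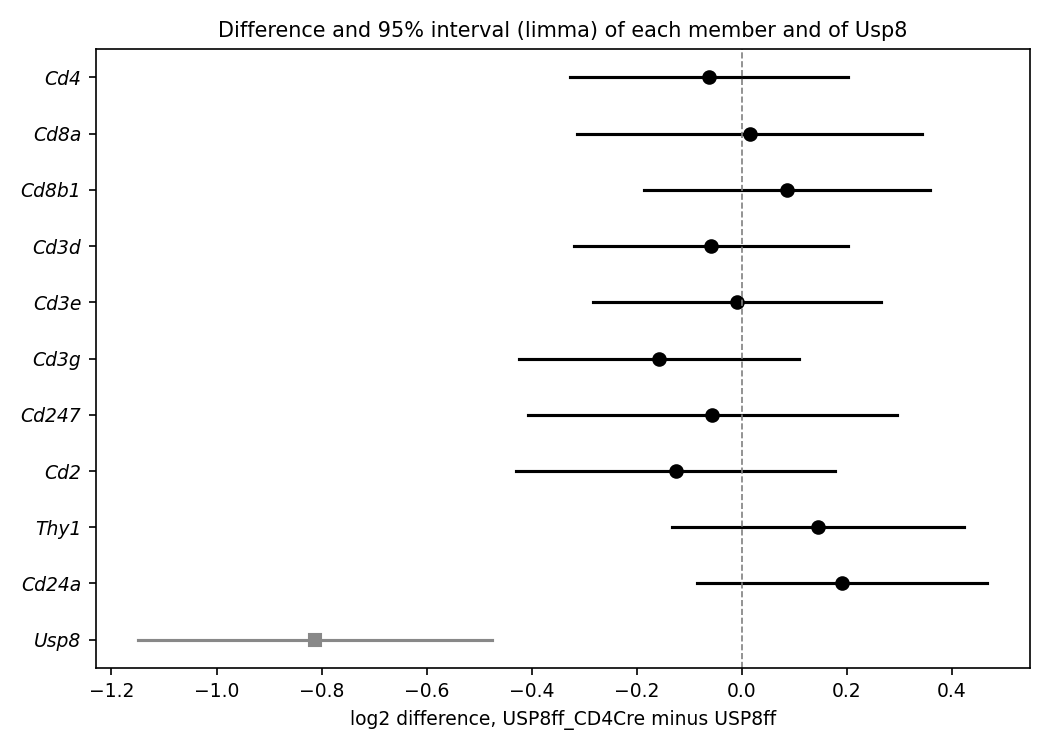
Log2 difference (USP8ff_CD4Cre minus USP8ff, points) with its 95% limma interval (lines) for the 10 genes and, in grey, for Usp8. Every member's interval crosses 0, with the bounds farthest from no change at 74.3% and 138% of control, while the Usp8 interval runs from 45.1% to 71.9% of control.

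By sign, 6 of the 10 members were negative and 4 positive, with a median log2 difference of -0.032. The groups did not overlap for 6 members, 3 lower and 3 higher, beside 40.6% of all genes (16.3% lower and 24.3% higher). Of the 18 probes, 13 were negative, beside 46.9% of all kept probes. The groups did not overlap for 5 lower and 3 higher probes, beside 38.7% of all kept probes (16.6% lower and 22.1% higher). None had an unadjusted p under 0.05, beside 6.67%. These shares describe genes and probes that share the same 4 arrays. The directions of Cd4, Cd3d, Cd3g, Cd2 and Cd24a were the same under the 8 alternatives that can move a difference, and those of the other 5 members turned under at least 1. The other 6 of the 14 leave every member's difference as it is and bear only on its test.

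**Figure D5:**
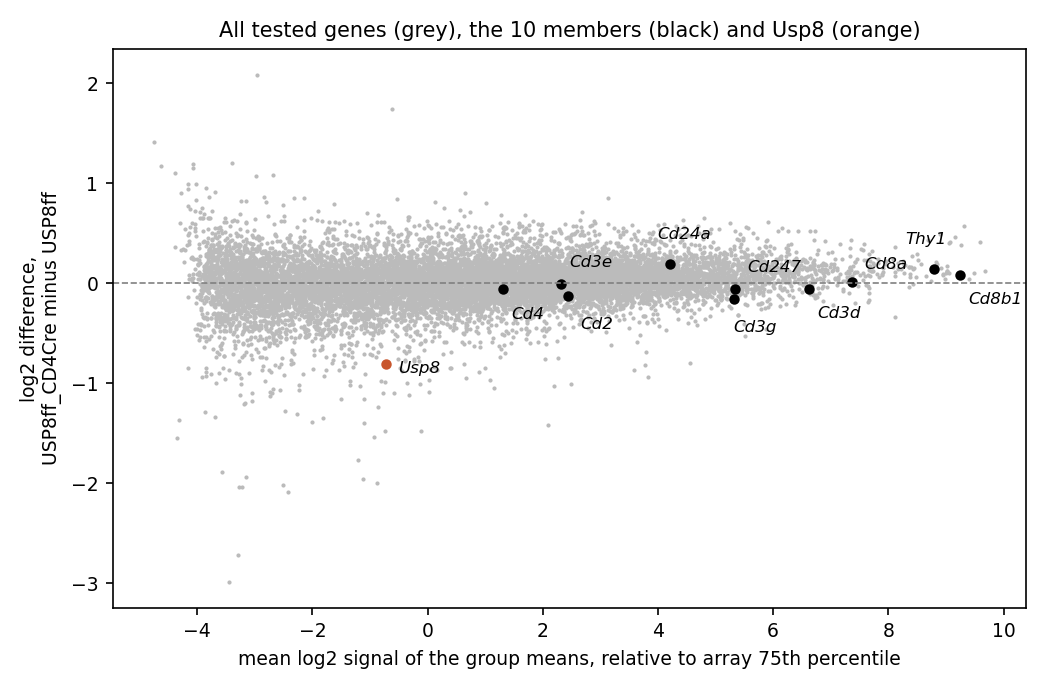
Log2 difference (USP8ff_CD4Cre minus USP8ff) against mean log2 signal for all 13062 tested genes (grey), the 10 members (black) and Usp8 (orange). The members lie between -0.16 and 0.19, inside the cloud of genes, and Usp8 lies at its lower edge at -0.81, a size that 0.97% of genes exceeded in either direction.

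Genes with the same 4-array pattern as Cd4 were common. Among 12530 other genes well above background on all arrays, the closest to Cd4 after centring each gene on its mean were Lpp, Tmc8 and Arpc5, with root mean square differences of 0.0033, 0.0046 and 0.0067 log2 units over 4 arrays. There were 883 genes within 0.05. For the mean of the CD3 genes the closest were the feature NAP025822-1 (0.0067), Gm5662 (0.0068) and Rps6kb2 (0.0075), with 873 genes within 0.05. All these values share the same arrays and scaling, and many genes differ little between the arrays.

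The CD3 complex serves the T cell receptor chains, of which 3 of the 15 listed names were measured and 0 passed. Ptcra, the pre-TCR alpha chain, had a difference of -0.16 ± 0.17 (SE), and Tcrb-J, a beta-chain segment, had -0.45 ± 0.29. Tcra, the alpha chain, read 5.88 and 4.21 in USP8ff, and 6.04 and 4.43 in USP8ff_CD4Cre on its main probe (chr14:54843713-54843772). Replicate 1 was higher than replicate 2 by over 1.6 log2 units in both genotypes, while the probes that stood for the members differed between replicates by at most 0.27, and any member probe by at most 1.12, for a Cd247 probe. A Tcra probe printed 10 times (chr14:54820230-54820289) did not show that gap, with 4.31 and 4.38 in USP8ff, and 4.55 and 4.24 in USP8ff_CD4Cre.

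Kinases and adaptors next to the receptor were all measured, 28 of 28, and 0 passed in either direction. Of them, 12 were negative and 16 positive, with a median of 0.014, and 7 were lower and 1 higher without overlap, beside 16.3% and 24.3% of all genes. Fyn, a Src family kinase, had -0.29 ± 0.12 (limma adjusted p = 0.67), and Ubash3b, a phosphatase that acts on this pathway, had -0.62 ± 0.14 (limma adjusted p = 0.66). Regulators of the Cd4 and Cd8 genes were measured for 18 of 20 names, 9 negative and 9 positive, with 0 passing and a median of -0.0033. Cbfb, the partner of RUNX factors, had 0.23 ± 0.12, the zinc finger factor gene Bcl11b -0.20 ± 0.13 and Tcf7 0.16 ± 0.13. Zbtb7b, the factor ThPOK of the CD4 lineage, had no array with a signal well above background.

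Other surface genes of DP thymocytes were measured for 19 of 20 names, with 13 negative, 6 positive, 0 passing and a median of -0.045. Cd53, a tetraspanin gene, had the largest difference, -1.003 ± 0.16 (limma adjusted p = 0.58). It is also on the list of mature single-positive markers below. Cd1d1, an antigen-presenting molecule gene, had -0.25 ± 0.12, and the tetraspanin gene Cd81 had -0.18 ± 0.11. GPI-anchored and Ly6 genes, the class that Thy1 and Cd24a belong to, were measured for 8 of 14 names, with 3 negative, 5 positive and a median of 0.10. Cd52 had -0.46 ± 0.13, Ly6e 0.37 ± 0.14 and Prnp, the prion protein gene, 0.24 ± 0.11, and 0 of the 8 passed. Ligands and partners of CD2 and CD24 had 3 negative and 3 positive of 6 measured, 0 passing and a median of -0.024. Cd48, the ligand of mouse CD2, had -0.086 ± 0.11, Cd2ap, whose product binds the tail of CD2, had -0.16 ± 0.12, and Hmgb1 had 0.25 ± 0.12.

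Stage markers varied beside these values. Of the 10 DP stage markers 9 were negative, with a median of -0.17 and summed linear signals, in multiples of the 75th percentile, of 1012 and 1030 in USP8ff and 1035 and 1034 in USP8ff_CD4Cre. Most of that sum was Dntt, the only positive gene of the list, at 0.10 ± 0.10. Without it the sums were 326 and 339 in USP8ff against 301 and 290 in USP8ff_CD4Cre, the opposite order. Rag2 had -0.33 ± 0.13, Cd1d1 is given above, and Rag1 had -0.19 ± 0.11. Of the mature single-positive markers, cells in which Cd24a is lower, 10 of 13 passed the filter. Il7r, Itgae and Gimap4 passed only through USP8ff, where they were the higher, so they had to enter as negative and support no count or median. The 7 genes well above background on all 4 arrays had 6 negative differences and a median of -0.15. Summed signals of the 10 were 105 to 113 in USP8ff and 115 to 125 in USP8ff_CD4Cre, mostly from Klf2 at 0.23 ± 0.12. Without Klf2 they were 24.7 and 27.1 in USP8ff against 22.7 and 21.6 in USP8ff_CD4Cre. Both sets of sums include Il7r, Itgae and Gimap4, whose direction was fixed by the filter, so they support no order of the groups. As a description, Il7r, Itgae and Gimap4 were at least 5.01-fold, 4.02-fold and 2.19-fold higher in USP8ff, and none passed. These bounds set the USP8ff mean against the lowest signal well above background, or the probe's own signal where higher. S1pr1, Cd40lg and Zbtb7b were not well above background anywhere. DN stage markers were measured for 4 of 8 names, with a median of -0.19 and sums of 4.98 to 5.03 and of 4.55 to 5.44, and Cd44 had -0.76 ± 0.31, Lyl1 -0.37 ± 0.19 and Notch3 0.18 ± 0.16. The part of these stages in the values of Cd24a, Cd2 and the CD3 genes was not tested.

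Markers of macrophages, dendritic cells, NK cells and gamma-delta T cells were mostly dim, while Igh-6 of the B cell list was bright, as given above. Macrophage and dendritic cell markers were negative for 6 of 6 measured of 16 names (median -0.32, sums 2.62 to 2.87 in USP8ff and 1.59 to 1.90 in USP8ff_CD4Cre), with Ctss at -1.96 ± 0.21, Mpeg1 at -1.09 ± 0.23 and Cd74 at -0.45 ± 0.13. Adgre1, H2-Aa and C1qa were not well above background on any array. NK and gamma-delta T cell markers had 5 measured of 12 names. Il2rb, at -2.02 ± 0.34, was well above background on 3 arrays and passed the filter only through USP8ff. It thus had to enter as negative and supports no count or sum. Of the 4 genes well above background on all 4 arrays, 2 were negative, Nkg7 at -2.09 ± 0.18 and Prf1 at -0.86 ± 0.21, and 2 positive. Sums that include Il2rb were 4.28 to 4.37 in USP8ff and 3.94 to 5.29 in USP8ff_CD4Cre, mostly from Gzma, the brightest. Klrb1c, Klrk1, Ncr1, Gzmb and Sox13 were not well above background.

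B cell markers had 3 of 9 names measured (median -0.078), and the sum of 73.7 to 83.0 in USP8ff and 99.9 to 119 in USP8ff_CD4Cre was mostly that of Igh-6, at 0.53 ± 0.15. Blnk had -0.75 ± 0.38 and Cd79b -0.078 ± 0.12. Erythroid markers had 2 of 8 measured (median 0.26, sums 0.18 to 0.21 and 0.19 to 0.39), with Car1 at -0.30 ± 0.19 and Hba-a2 at 0.81 ± 0.52. The listed name Hbb-b1 entered the test under its current symbol Hbb-bt and is not in those figures. It read -2.84 and -2.63 in USP8ff, and -2.78 and -2.08 in USP8ff_CD4Cre, a difference of 0.31 ± 0.25. Thymic stroma markers had 3 of 8. Krt5, at 0.22 ± 0.12, was well above background on 3 arrays, so it passed the filter through 1 genotype only and supports no count or median. The 2 genes well above background on all 4 arrays were negative (median -0.30), Epcam at -0.47 ± 0.13 and Ccl25 at -0.13 ± 0.14. Sums that include Krt5 were 1.95 to 2.34 in USP8ff and 1.90 to 1.93 in USP8ff_CD4Cre. Of the granulocyte markers 1 of 7 was measured, Mpo, at -0.14 ± 0.10 (sums 0.103 to 0.104 and 0.0935 to 0.0941). In all these lists 0 genes passed, and the part of such cells in the values of the members was not tested.

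The authors' deposited table held 78 probes, beside 41174 on the array, and 0 of the 18 member probes were in it. A table that short would hold few or none of any 18 probes, so this count does not show that the members were unchanged.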

How the data were processed

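Per the labels' protocols, cRNA from 500 ng of RNA was labelled with Cy3 for 1-colour arrays. Per the file headers, 1 slide was read with Agilent Feature Extraction 10.7.3.1 on build mm9. The deposited values are spot intensities, background-subtracted and detrended but not normalized between arrays. The authors' deposited comparison gives an absolute fold ratio and a p-value per probe, with an unstated test and reference. A further table with 4 value columns that match no label was not used.

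Log2 processed signals were set against each array's 75th percentile over 43379 non-control spots. Outlier spots were dropped and spots of a probe averaged. A probe was kept where both arrays of a genotype had it well above background (19038 of 41174), and the probe with the highest mean stood for its gene (13062 genes). Symbols came from RefSeq accessions for 26690 probes and otherwise from the array design. The genotype test was lmFit with eBayes and no block (limma 3.58.1, R 4.3.3), with Benjamini-Hochberg adjustment at 0.05 over all genes. The fit was tested on simulated data. A difference is USP8ff_CD4Cre minus USP8ff.

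The members and lists were chosen with earlier results of these data known. Named genes were Usp8, the members with all probes, up to 3 genes per list with the smallest p, and the 3 closest in pattern to Cd4 and to the CD3 mean. Exceptions, chosen after their values were seen, were markers named as absent, the carriers of list sums, Hbb-bt, Trav4n-4 and the second Tcra probe. Some items that the rule or lists name are not reported here. Probe sequences came from the scanner files. Over all probes, the last 30 bases matched the promoter window of their gene as listed for 11, as the reverse complement for 7 and when only reversed for 0, so they are written 5′ to 3′. RefSeq held promoter windows for 5 of the 10 members. The 14 alternatives changed the scaling (quantile, median), the background (normexp with an offset of 50), the filter (none, or detection on 4 arrays), the choice of probe (averaged, or tested singly) and the model (replicate block, eBayes trend), kept outlier spots, or left out an array. Figures used matplotlib 3.10.9 in Python 3.11.15.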

Additional observations from a re-analysis of the deposited data

How the results depend on the processing

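Of 140 member values computed under 14 alternatives, 0 passed the adjusted threshold and 0 had an unadjusted p under 0.05 in limma. The smallest adjusted p was 0.59, for Cd24a with the replicate block. No gene of all those tested passed under any alternative. With quantile normalization the difference was -0.10 for Cd8a, -0.19 for Cd8b1 and -0.081 for Thy1, each of the opposite sign, 0.015 for the Cd4 to Cd8a ratio and -0.15 for the CD3 mean. With normexp background Cd8a had -0.014, and with the mean of probes the CD3 mean was -0.16. With each array left out, Cd8a ranged from -0.085 to 0.12, Cd3e from -0.061 to 0.043 and Cd247 from -0.19 to 0.080. There the lone array of a group was assumed to vary like the other group. The cause of these turns was not tested. Between 4 and 9 of the members were negative over the alternatives.

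Genes at an unadjusted p under 0.05 numbered 452 lower and 518 higher, and 485 and 337 with median scaling. Without USP8ff_CD4Cre replicate 2 they were 229 and 167. The labels do not say that replicate numbers pair the samples. Deviations from the group mean of samples with the same number correlated at 0.32 over genes. In this balanced design the replicate block cannot move a difference, only its test. With it the differences were the main ones: Cd4 -0.063, Cd8a 0.015, Cd8b1 0.086, Cd3d -0.058, Cd3e -0.0090, Cd3g -0.16, Cd247 -0.056, Cd2 -0.13, Thy1 0.15, Cd24a 0.19, Usp8 -0.81 and the CD3 mean -0.070. With it 0 genes passed, and 697 lower and 641 higher had an unadjusted p under 0.05. A pair of Cd247 probes had an SE of 0.30 and 0.39 against 0.14 for the brightest, and the cause was not tested.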

Other observations

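Between replicate numbers, 8 genes were lower in replicate 2 than in replicate 1 by over 1.5 log2 units in both genotypes, and 7 were higher by as much. The Tcra probe described above was among the first, with -1.67 in USP8ff and -1.60 in USP8ff_CD4Cre. Trav4n-4, a variable segment of the alpha chain, had -0.67 and -0.99. The pools shared no such gap in the 10 genes described, and its cause was not tested.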
